A study of Mus musculus with 18 samples.

Results

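Complement components and their receptors were described as 9 genes of the deposited mouse colon RNA-seq table, taken by name out of 35405 genes: C3, Cfb, C4b, C2, C1ra, C1s1, C3ar1, C5ar1 and Serping1. Each of the 9 names matched a single row, and all 9 passed the filter on low counts. The table held 18 libraries of polyadenylated RNA from colon tissue in 3 groups of 6, labelled vector, TNBS and IBC. TNBS stands for trinitrobenzene sulfonic acid, which provokes colitis when given into the bowel of rodents, and IBC for isobavachalcone, a plant chalcone that the series title links to TNBS colitis and to the receptor GPR84. The vector group serves as the control. Whether the mice of the IBC group also received TNBS is not given in the sources used here. Dose, route, time of sampling, strain, sex and age are not given in them either. Nor do the labels say whether each library came from its own mouse, so p-values measure the spread between these libraries.

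Complement is a set of plasma and tissue proteins that cleave one another in a cascade on microbes, immune complexes and damaged cells. The classical pathway begins with C1, in which the protease C1r activates C1s, and C1s cuts C4 and C2. The alternative pathway amplifies the cascade through C3 and factor B. Cleavage of C3 and C5 frees the small peptides C3a and C5a, which bind receptors on myeloid cells, and the C1 inhibitor encoded by Serping1 blocks C1r and C1s. The liver makes most of the plasma pool, while epithelial cells, fibroblasts and macrophages make complement in the gut wall.

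Each library held between 55.67 and 78.87 times 1e6 counts. Hoxb13, a homeobox gene expressed in the distal colon, was between 123 and 597.6 counts per 1e6 counts (CPM) in 12 libraries and at most 1.443 CPM in the other 6. The low libraries were vector replicates 3 and 4, TNBS replicates 2 and 3, and IBC replicates 2 and 5, so each group had 4 high and 2 low libraries. The labels give no position along the colon, so these classes are a property of the data and not groups of the study. Summed markers of colon epithelium (9 genes) ranged from 9062 to 35560 CPM. In vector replicate 6, 6 pancreatic acinar markers summed to 17110 CPM, against at most 377.6 CPM in every TNBS and IBC library. The mitochondrial share of counts was 17.98% in vector replicate 3 and 4.48% to 9.20% elsewhere. In bulk tissue, fewer cells of a type and less RNA per cell cannot be told apart.

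Levels of different genes were compared per length, as the deposited fragments per kilobase and per 1e6 fragments (FPKM). By the median of 18 libraries the order was Serping1 at 32.3 FPKM, Cfb at 24.1, C3 at 19.8, C1s1 at 19.2, C1ra at 9.71, C4b at 8.63, C5ar1 at 1.64, C2 at 1.24 and C3ar1 at 1.16. Serping1 was above Cfb in 17 of the 18 libraries. Cfb was above C3 in 11 and C3 above C1s1 in 10, so these 3 neighbours did not separate. C1s1 was above C1ra, and C4b above C5ar1, in all 18. C5ar1 exceeded C2 in 12 libraries and C2 exceeded C3ar1 in 8. The spread within a gene also differed. The highest library held 6.77 times the CPM of the lowest for C3ar1 and 6.48 times for C3, but 1.84 times for Serping1.

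C3, the protein on which all complement pathways converge, ran from 11.4 to 69.7 FPKM over the 18 libraries. This was the widest span among the members as a difference in FPKM. As a ratio of highest to lowest it was 6.12 for C3, below 9.20 for C3ar1, 6.60 for C5ar1 and 6.54 for C2. It lay between 64.0 and 130.1 CPM in the vector libraries, with a median of 81.7. In the TNBS group it ran from 79.9 to 414.7 CPM with a median of 108.3, and in the IBC group from 97.3 to 346.7 CPM with a median of 193.4. TNBS replicate 3 stood apart at 414.7 CPM, and the other 5 TNBS libraries reached at most 135.8 CPM, so the vector and TNBS ranges overlapped widely. Of the IBC libraries, 5 of 6 were above every vector library. C3 was 0.83 ± 0.39 (SE) log2 units higher in TNBS than in vector (95% interval 0.01 to 1.65, edgeR adjusted p = 0.276, n = 6 each). It was 1.30 ± 0.39 higher in IBC than in vector (0.47 to 2.13, edgeR adjusted p = 0.319) and 0.47 ± 0.39 higher in IBC than in TNBS (-0.35 to 1.28, edgeR adjusted p = 0.925). None of these passed the threshold of 0.05. Without TNBS replicate 3, the difference of TNBS from vector was 0.24 and that of IBC from TNBS was 1.06.

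Cfb, the protease precursor of the alternative pathway convertase, differed less between the groups than C3. TNBS replicate 3 was the highest library for both genes. The medians of Cfb were 68.9 CPM in vector (40.5 to 109.3), 74.2 CPM in TNBS (65.3 to 148.4) and 76.6 CPM in IBC (53.6 to 128.4). The 3 ranges overlapped almost fully. TNBS differed from vector by 0.21 ± 0.27 log2 units (-0.36 to 0.79, edgeR adjusted p = 0.688) and IBC from vector by 0.16 ± 0.27 (-0.42 to 0.73, 0.928). IBC minus TNBS was -0.05 ± 0.27 (-0.63 to 0.52, 0.988). The deposited table places C3 on chromosome 17 at 57510970 to 57535136 and Cfb on the same chromosome at 35075350 to 35081494, both on the minus strand and in coordinates whose build is not given in the sources used here. C2 lies beside Cfb at 35081580 to 35117241, and a read-through row (Gm20547) that overlaps both held at most 3 counts in any library.

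**Figure D1:**
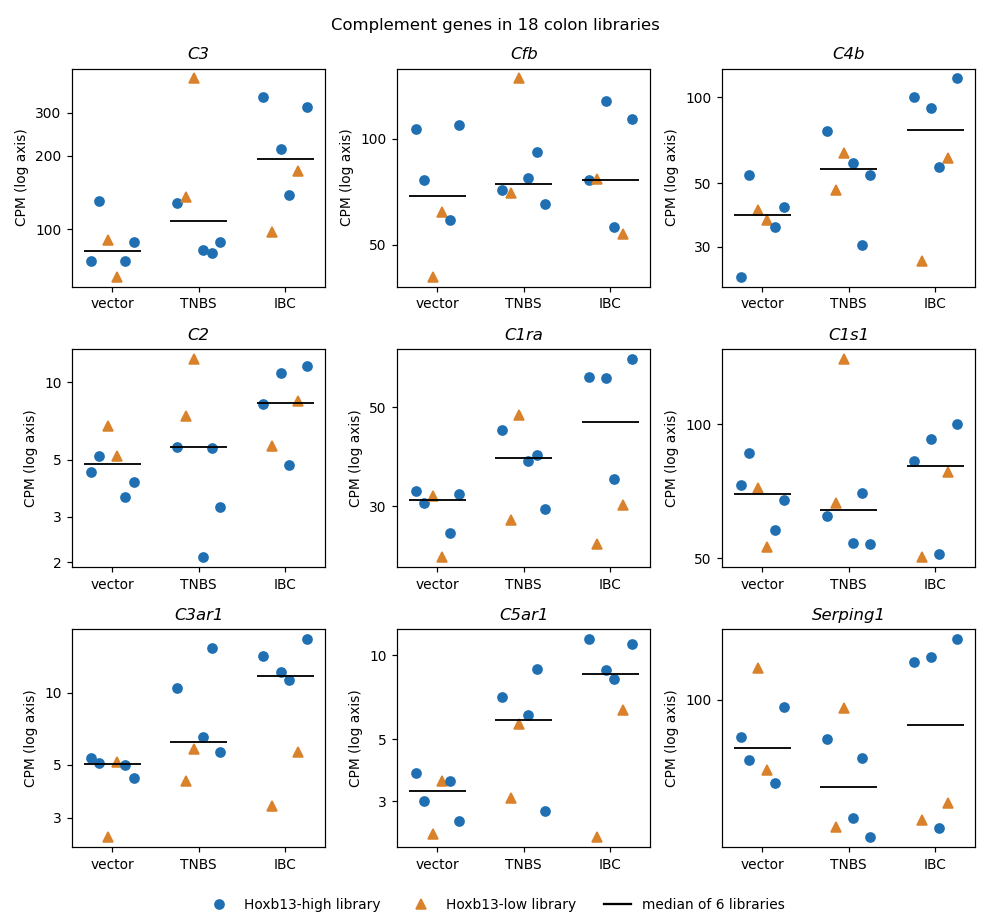
Level of each of the 9 genes in every library, as CPM on a log axis, with 1 panel per gene and the vector, TNBS and IBC groups side by side. Points are libraries, marked by their Hoxb13 class, and the line is the median of 6; C3 in TNBS replicate 3 is the highest point of its panel at 414.7 CPM, and the 4 highest IBC points of C3ar1 and of C5ar1 are Hoxb13-high libraries.

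The C1 proteases were near one another in the genome and unlike in their group levels. C1ra (chromosome 6, 124489364 to 124500402, plus strand) encodes C1r, which activates C1s. Its medians were 31.0 CPM in vector (23.1 to 32.5), 38.5 CPM in TNBS (28.0 to 48.0) and 46.3 CPM in IBC (24.7 to 64.2). The vector libraries were tightly grouped, and 4 TNBS and 4 IBC libraries were above all of them. C1ra was 0.37 ± 0.22 log2 units higher in TNBS than in vector (edgeR adjusted p = 0.364) and 0.62 ± 0.22 higher in IBC than in vector (95% interval 0.16 to 1.08, edgeR adjusted p = 0.397). IBC minus TNBS was 0.25 ± 0.22 (0.925). C1s1 (chromosome 6, 124507304 to 124519318, minus strand) encodes C1s, which cuts C4 and C2. It had medians of 69.6 CPM in vector (52.8 to 86.1), 64.2 CPM in TNBS (53.9 to 140.1) and 80.4 CPM in IBC, where IBC replicate 2 was lowest at 50.3 and IBC replicate 6 highest. Its differences lay between 0.03 and 0.15 log2 units in the 3 comparisons, with edgeR adjusted p from 0.787 to 0.991. The highest C1s1 library was TNBS replicate 3, as for C3, Cfb and C2.

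C4b, the mouse C4 that deposits on surfaces, had medians of 38.8 CPM in vector (23.6 to 53.5), 56.1 CPM in TNBS (30.5 to 76.5) and 76.6 CPM in IBC (26.8 to 116.2). Of the IBC libraries, 5 of 6 were above every vector library, while IBC replicate 2 was near the bottom of the vector range. C4b was 0.51 ± 0.29 log2 units higher in TNBS than in vector (-0.09 to 1.11, edgeR adjusted p = 0.341) and 0.97 ± 0.29 higher in IBC than in vector (0.37 to 1.57, edgeR adjusted p = 0.314). C2, which pairs with C4b in the classical convertase, was among the 3 lowest members per length. Its medians were 4.81 CPM in vector (3.59 to 6.73), 5.59 CPM in TNBS (2.10 to 12.3) and 8.33 CPM in IBC (4.77 to 11.6). It differed by 0.31 ± 0.33 log2 units between TNBS and vector (edgeR adjusted p = 0.619). Its IBC against vector difference was 0.76 ± 0.34 log2 units (0.06 to 1.47, edgeR adjusted p = 0.545). For IBC against TNBS, C4b differed by 0.46 ± 0.29 and C2 by 0.45 ± 0.33 log2 units, each with an edgeR adjusted p of 0.925.

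Mice carry close copies of 3 of these genes, and reads could have been divided between copies. C4a held 3.80% to 9.15% of the CPM of C4b, C1rb 9.55% to 21.6% of C1ra and C1s2 4.50% to 10.7% of C1s1. For IBC against vector, C1rb differed by 0.83 ± 0.31 log2 units (edgeR adjusted p = 0.436) and C4a by 0.53 ± 0.35 (0.752), while C1s2 differed by 0.02 ± 0.34 (0.993). In this comparison each copy was on the same side of 0 as the member it resembles, and none passed the threshold.

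Fibroblast markers, which include collagens and the matrix proteins decorin and lumican, were read beside these genes. Their summed level (8 genes) ranged from 894 to 1817 CPM in vector, from 907 to 2529 CPM in TNBS and from 808.6 to 3837 CPM in IBC. The 4 Hoxb13-high IBC libraries held 2680 to 3837 CPM, more than any vector or TNBS library, and the 2 low ones held 808.6 and 964.5 CPM. In IBC replicates 1, 3, 4 and 6 the fibroblast sums were 3837, 2680, 3047 and 3590 CPM. C3 in the same 4 libraries was 346.7, 213, 138.7 and 315.5 CPM. TNBS replicate 3 had 907 CPM of fibroblast markers and 415 CPM of C3. Estimates were above 0 for 4 of the 8 markers for TNBS against vector (median 0.17 log2 units). The count was 7 of 8 for IBC against vector (0.43) and 8 of 8 for IBC against TNBS (0.39). Col1a1 and Col1a2 had the highest levels of the 8, up to 1363 and 1329 CPM. For IBC against vector they had 2.07 and 1.57 log2 units (edgeR adjusted p = 0.326 and 0.379), while Dpt had -0.51 (0.522). The part of fibroblast content in the differences of C3, C4b and C1ra was not tested. The sum of 9 hepatocyte markers ranged from 14.8 to 130.1 CPM in vector, from 11.6 to 223.8 CPM in TNBS and from 14.6 to 362.9 CPM in IBC. The fibrinogen genes Fga, Fgb and Fgg were at 0 in 15 or more of the 18 libraries, Apoa2 in 16 and Apoa1 in 9. Alb, Ttr, Serpina1c and Cyp2e1 were at 0 in none, with highest levels of 7.60, 51.5, 3.18 and 359.7 CPM. The part of hepatocyte transcripts in the members' differences was not tested.

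C3ar1 and C5ar1, the receptors of C3a and C5a on macrophages, neutrophils and other myeloid cells, had the lowest levels of the set besides C2 and some of its largest group differences. C3ar1 lay between 2.48 and 5.32 CPM in vector (median 5.02), between 4.27 and 15.3 CPM in TNBS (median 6.19) and between 3.37 and 16.8 CPM in IBC (median 11.7). C5ar1 lay between 2.29 and 3.80 CPM in vector (median 3.28), between 2.76 and 8.95 CPM in TNBS (median 5.88) and between 2.23 and 11.4 CPM in IBC (median 8.55). For both receptors 5 of the 6 IBC libraries were above every vector library, and IBC replicate 2 was not. TNBS against vector gave 0.81 ± 0.36 log2 units for C3ar1 (0.05 to 1.57, edgeR adjusted p = 0.258) and 0.84 ± 0.34 for C5ar1 (0.13 to 1.55, edgeR adjusted p = 0.226). IBC against vector gave 1.22 ± 0.36 for C3ar1 (0.45 to 1.98, edgeR adjusted p = 0.314) and 1.36 ± 0.34 for C5ar1 (0.64 to 2.07, edgeR adjusted p = 0.241). IBC against TNBS gave 0.40 ± 0.36 and 0.52 ± 0.33, both with an edgeR adjusted p of 0.925. No receptor difference passed the threshold.

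The receptors are also read beside the markers of macrophages and neutrophils. The sum of 10 monocyte and macrophage markers ranged from 165.5 to 659.7 CPM in vector (median 427.3), from 285.7 to 1518 CPM in TNBS (median 479.7) and from 294.3 to 1027 CPM in IBC (median 679.2). TNBS replicate 5 was highest in these markers at 1518 CPM and was also the highest TNBS library for each receptor. IBC replicate 2 was the lowest IBC library for the markers and for each receptor. In the fits, 7 of the 10 had estimates above 0 for TNBS against vector (median 0.40 log2 units). The count was 8 of 10 for IBC against vector (0.75) and 8 of 10 for IBC against TNBS (0.54). Lyz2 had the highest level of the 10, up to 1304 CPM, so it weighs heavily in the sum. Its estimates in these comparisons were 0.82, 0.65 and -0.16 log2 units. The sum of 11 neutrophil markers ranged from 6.05 to 159.2 CPM in vector (median 68.8), from 97.7 to 964.2 CPM in TNBS (median 148.5) and from 29.6 to 255 CPM in IBC (median 195.9). Of the 9 neutrophil markers tested, all 9 had estimates above 0 for TNBS against vector (median 3.62 log2 units). All 9 were also above 0 for IBC against vector (median 3.57), and 3 of 9 for IBC against TNBS (median -0.64). None of the 9 passed the edgeR threshold in any of the 3 comparisons. Ly6g had the highest level of the 11, up to 692.1 CPM, so it weighs heavily in the sum. Its estimates in these comparisons were 1.898, 0.7132 and -1.185 log2 units. The granule genes Ngp and Camp were at 0 in 12 libraries. The part of these cells in the receptor differences was not tested.

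The sequences before the starts of C3 and of the 2 receptors are shown because C3 had the widest span as a difference in FPKM and the receptors had the highest correlation of any pair over the 18 libraries before group and class means were removed. They are the 250 bases before the annotated start (RefSeq, build GRCm38.p6, minus strand, given 5′ to 3′), at chr17:57228137-57228386 for C3, chr6:122856158-122856407 for C3ar1 and chr7:16259339-16259588 for C5ar1. Capitals mark matches to 4 motifs searched on both strands: C/EBP (TTGCNNAA), NF-kB (GGNNTTTCC), STAT (TTCNNNGAA) and ISRE (GAAANNGAA).
C3: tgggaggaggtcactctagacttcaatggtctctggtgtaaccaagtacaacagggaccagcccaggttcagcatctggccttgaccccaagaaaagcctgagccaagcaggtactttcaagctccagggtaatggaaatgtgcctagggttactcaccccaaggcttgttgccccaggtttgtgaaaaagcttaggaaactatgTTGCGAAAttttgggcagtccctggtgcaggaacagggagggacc
C3ar1: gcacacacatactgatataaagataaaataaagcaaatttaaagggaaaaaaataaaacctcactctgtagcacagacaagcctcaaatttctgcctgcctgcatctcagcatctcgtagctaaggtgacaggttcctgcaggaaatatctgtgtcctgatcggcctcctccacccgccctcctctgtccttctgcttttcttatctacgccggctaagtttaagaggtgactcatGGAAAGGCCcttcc
C5ar1: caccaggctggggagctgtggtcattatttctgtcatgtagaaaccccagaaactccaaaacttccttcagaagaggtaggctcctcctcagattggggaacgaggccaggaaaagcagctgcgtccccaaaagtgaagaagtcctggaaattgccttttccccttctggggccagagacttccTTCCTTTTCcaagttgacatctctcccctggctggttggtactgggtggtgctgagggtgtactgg

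The window searched was 300 bases, with 50 bases after the start, and 5 of the 9 members had an entry (C3, C1ra, C1s1, C3ar1 and C5ar1). C3 had a C/EBP match from position -45 to -38, C3ar1 an NF-kB match on the minus strand from -14 to -6, and C5ar1 an ISRE match on the minus strand from -66 to -58. C1ra had a C/EBP and a STAT match after its start, and 1 of 2 C1s1 entries a C/EBP match from -242 to -235. Of 32841 promoter windows of this length, 10.8% held the C/EBP letters, 5.83% the NF-kB, 8.3% the STAT and 8.56% the ISRE letters. No match in the members' windows overlapped another, and a match describes the letters only.

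Serping1, the C1 inhibitor and the only inhibitor in the set, was the steadiest member. Its medians were 86.2 CPM in vector (77.6 to 110.2), 76.6 CPM in TNBS (65.7 to 97.7) and 92.6 CPM in IBC (67.7 to 120.5). It was the only member with a lower fitted level in TNBS than in vector, at -0.19 ± 0.17 log2 units (-0.54 to 0.16, edgeR adjusted p = 0.547). IBC against TNBS gave 0.23 ± 0.17 (0.925) and IBC against vector 0.05 ± 0.17 (0.967).

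Transcripts of the inhibitor and of its target were compared by the FPKM ratio of Serping1 to C1ra in each library, which does not measure the proteins. The ratio was 3.53, 3.50, 4.48, 4.48, 3.81 and 3.93 in vector replicates 1 to 6. It was 2.56, 3.11, 2.61, 2.35, 2.74 and 2.85 in TNBS replicates 1 to 6, so every TNBS library was below every vector library. The IBC libraries had 2.47, 3.59, 2.51, 2.52, 3.09 and 2.41, and IBC replicate 2 lay inside the vector range. Of the 36 pairs of members, this was the only ratio without overlap between TNBS and vector. Over all 20855 tested genes, 2.57% had a ratio to Serping1, and 1.54% a ratio to C1ra, without overlap between those groups. The pair was picked after all 36 ratios had been seen, so it carries no test.

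Of the 36 ratios, 2 were without overlap between IBC and vector. C3 to C1s1 was 1.18 to 2.55 in IBC and 0.62 to 0.92 in vector, where 0.451% of genes had such a ratio to C1s1. C2 to Serping1 was 0.042 to 0.069 in IBC and 0.025 to 0.038 in vector, where 0.638% of genes had such a ratio to Serping1. No ratio separated IBC from TNBS.

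**Figure D2:**
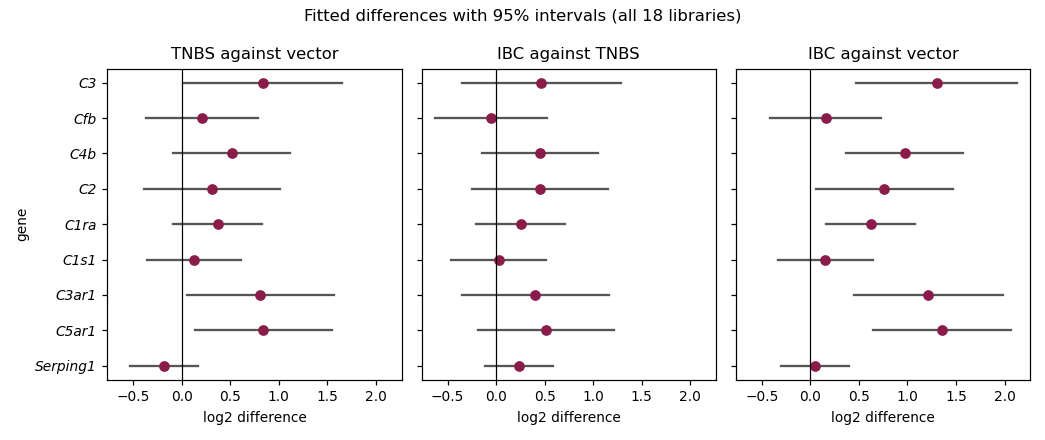
Fitted log2 differences of the 9 genes in the 3 comparisons over all 18 libraries, with bars for 95% intervals of the edgeR fit. The C5ar1 bar for IBC against vector runs from 0.64 to 2.07 and lies right of 0, and every IBC against TNBS bar crosses 0.

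Across the 9 members, no difference passed an adjusted p of 0.05 in any comparison (edgeR's quasi-likelihood test, adjusted over 20855 genes). Of all genes tested, 0.0192% passed between TNBS and vector, and 0% passed in each of the comparisons with IBC. At an unadjusted p under 0.05, 3 of 9 members (C3, C3ar1 and C5ar1) were higher in TNBS than in vector, where 10.4% of all genes were. For IBC against vector, 6 of 9 were higher (those 3 with C4b, C2 and C1ra), where 4.9% of all genes were. For IBC against TNBS the count was 0 of 9, with 1.71% of all genes. The members' median difference from vector was 0.37 log2 units with TNBS and 0.76 with IBC, and their median for IBC minus TNBS was 0.40. Over all genes these medians were -0.01, -0.01 and 0.00. Other tools made calls among the members for IBC against vector: DESeq2 called C5ar1 (adjusted p = 0.0143), 1 of 9, where 0.913% of all genes were called. Limma with library weights called C3, C4b, C1ra, C3ar1 and C5ar1 (adjusted p from 0.0128 to 0.0411), 5 of 9, where 2.92% of all genes were called. The comparisons share libraries, so these counts are not separate evidence. Without vector replicate 3 or vector replicate 6, the count for TNBS against vector was 1 of 9, and without TNBS replicate 3 it was 2 of 9. For IBC against vector it was 5 or 6 of 9 whichever library was left out. For IBC against TNBS it was 2 of 9 without TNBS replicate 3 or without IBC replicate 2. In no comparison did all 6 libraries of a group lie above all 6 of another for any member. Of all genes, 0.432% did so for TNBS against vector, 0.446% for IBC against vector and 0.0527% for IBC against TNBS.

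The number of members above the whole vector range was counted for each library. It was 9 of 9 in IBC replicates 3 and 6, 7 in IBC replicate 1, 5 in IBC replicates 4 and 5, and 0 in IBC replicate 2. Among TNBS libraries it was 8 in replicate 3, 4 in replicates 1 and 4, 3 in replicate 5 and 2 in replicates 2 and 6. Members below the whole vector range numbered 3 in IBC replicate 2, and 2 in IBC replicate 4 and in TNBS replicates 4 and 6. There was 1 such member in IBC replicate 5 and in TNBS replicate 2. The share of all genes outside the vector range was not computed for single libraries, so these counts are a description.

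Between the Hoxb13 classes, C3ar1 was the only member whose difference passed the threshold. With group as a covariate it was lower in the 6 Hoxb13-low libraries, at -0.93 ± 0.25 log2 units (-1.46 to -0.41, edgeR adjusted p = 0.0156). It averaged 4.45 CPM ± 1.33 (SD, n = 6) in those libraries and 9.35 CPM ± 4.56 (SD, n = 12) in the others. Of all genes, 7.38% were lower and 8.2% higher in the low class at this threshold. C5ar1 differed by -0.60 ± 0.27 log2 units (edgeR adjusted p = 0.145) and C1ra by -0.35 ± 0.18 (0.2). C2 was on the other side of 0 at 0.50 ± 0.27 (0.222), and C3, C4b, Cfb, C1s1 and Serping1 had no difference past the threshold either. The sum of monocyte and macrophage markers was 165.5 to 487.2 CPM in the 6 low libraries and 360.9 to 1518 CPM in the 12 high ones, and its part in the C3ar1 difference was not tested.

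Within the classes, IBC and TNBS levels stood in opposite order. Among the 12 Hoxb13-high libraries, mean CPM was higher in IBC than in TNBS for 9 of 9 members, with a median of 0.52 log2 units, where 49.9% of all genes were higher. Among the 6 low libraries it was lower for 9 of 9, with a median of -0.47, where 50.1% of genes were higher. The low class has only 2 libraries a group, and 1 of its TNBS libraries is replicate 3. Without that library 6 of 9 members were lower and 3 higher in IBC, with differences from -0.11 to 0.48 and a median of -0.02, so the order in the low class rests on it.

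C3 showed this most. In the high class the 4 IBC libraries averaged 253.5 CPM (138.7 to 346.7) and the 4 TNBS libraries 94.8 CPM (79.9 to 127.9), without overlap. C3 was the only member with all 4 IBC above all 4 TNBS libraries, which 2.82% of genes showed. In the low class the IBC libraries had 97.3 and 173.8 CPM and the TNBS libraries 135.8 and 414.7 CPM. TNBS and vector had C3 means of 94.8 and 91.9 CPM in the high class, and of 275.3 and 77.2 CPM in the low class.

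**Figure D3:**
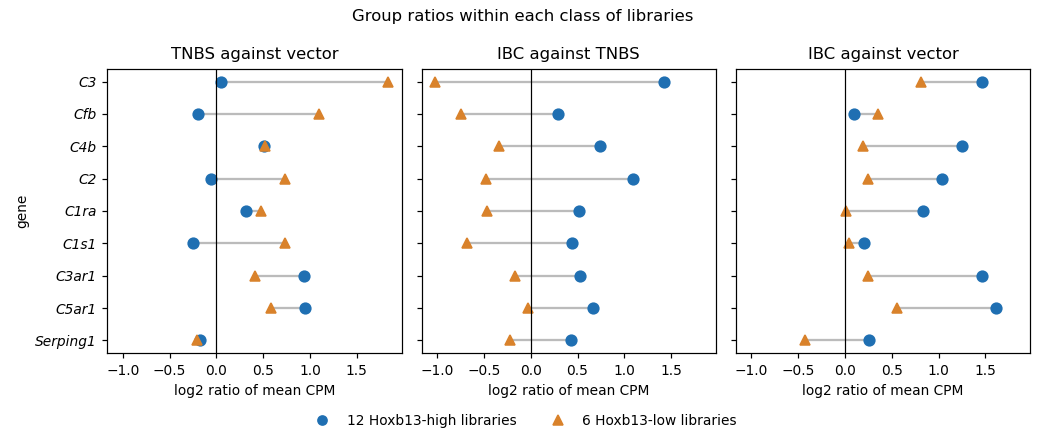
Log2 ratio of mean CPM for each of the 9 genes in the 3 comparisons, within the 12 Hoxb13-high libraries (4 a group) and within the 6 Hoxb13-low libraries (2 a group). For IBC against TNBS all 9 high-class points lie above 0 and all 9 low-class points below it, with C3 farthest on each side.

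A fit of the 12 Hoxb13-high libraries alone gave IBC against TNBS differences of 1.45 log2 units for C3, 1.12 for C2, 0.76 for C4b, 0.69 for C5ar1, 0.54 for C1ra, 0.47 for C1s1 and 0.45 for Serping1. These 7 of 9 members were past an unadjusted p of 0.05, where 5.23% of all genes were higher at that level. None passed after adjustment (edgeR adjusted p of 0.355 to 0.65 over the 9 members). IBC against vector in the same fit gave 1.64 for C5ar1, 1.5 for C3 and 1.5 for C3ar1, each with an edgeR adjusted p of 0.0604. In that comparison 6 of 9 members were past an unadjusted p of 0.05, where 7.16% of genes were. C3, C4b, C1ra, C3ar1 and C5ar1 had all 4 IBC libraries above all 4 vector libraries, which 6.8% of genes did. TNBS against vector had 1 such member, C3ar1, and 1.98% of genes. There C3ar1 and C5ar1 were past an unadjusted p of 0.05 (0.95 log2 units each), where 7.03% of genes were higher.

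The difference between the classes was fitted as an interaction of class and group. The interaction for IBC against TNBS was chosen after values had been seen, so its p-values are a description and not a test. The interaction for IBC against vector was not planned in advance, so its p-values are a description too. For IBC against TNBS, C3 had an interaction of -2.44 ± 0.61 log2 units, low minus high (-3.73 to -1.15, unadjusted p = 0.00101, edgeR adjusted p = 0.895). C2, C1ra and C1s1 had interactions of -1.58, -0.98 and -1.13 at unadjusted p of 0.0141, 0.0168 and 0.0177. Of all genes, 4.48% had an unadjusted p under 0.05 and 0.00959% passed after adjustment. No member passed after adjustment. Without TNBS replicate 3 the C3 interaction was -1.42 (unadjusted p = 0.0254), and those of C2, C1ra and C1s1 were -1.16, -0.54 and -0.49 (unadjusted p = 0.0898, 0.182 and 0.261). For TNBS against vector, C3, Cfb and C1s1 had interactions of 1.79, 1.30 and 0.97 at unadjusted p of 0.0091, 0.0205 and 0.0367, where 4.56% of genes were under 0.05. Their edgeR adjusted p was 1, and without TNBS replicate 3 the interactions were 0.77, 0.66 and 0.34. For IBC against vector, C3ar1 and C1ra had -1.22 and -0.82 at unadjusted p of 0.0364 and 0.0395, where 12% of genes were under 0.05 and 0.0048% passed after adjustment.

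Members were compared with one another over the 18 libraries, which share groups, class and depth, so correlations are a description. The 36 pairs had Pearson's r of log2 CPM between 0.21 and 0.931 with a median of 0.556. C3ar1 and C5ar1 were the closest pair at 0.931, and 0.883 after the means of group and class were removed. C1ra and Serping1 had 0.71, which became 0.959 after removal. C3 and C1s1 had 0.775 and 0.89. Inside a group and class, libraries with more C1ra also held more Serping1.

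**Figure D4:**
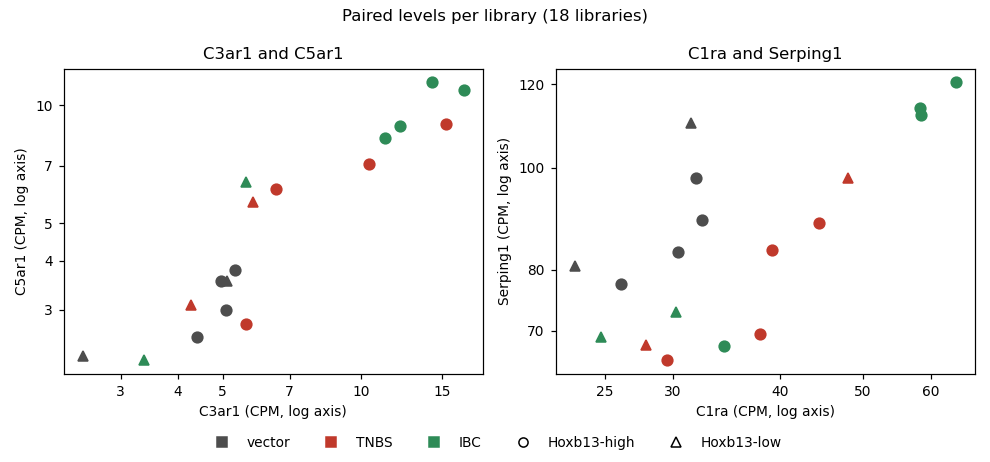
CPM of C3ar1 against C5ar1 and of C1ra against Serping1 in each of the 18 libraries, on log axes and marked by group. The receptors fall along a single band. The C1ra and Serping1 points form bands in which the vector libraries have more Serping1 for their C1ra than the TNBS libraries, and IBC replicate 2 lies with the vector libraries.

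The genes whose log2 CPM was most like that of each member were taken from 15808 genes with a mean of at least 1 CPM. C3ar1 was most like Lilrb4a, an inhibitory receptor of myeloid cells (r = 0.932), Ctsc, the protease cathepsin C (0.926), and Tlr13, an endosomal sensor of bacterial RNA (0.919). C5ar1 was most like Trem2, a lipid receptor of macrophages (0.922), the imprinted RNA H19 (0.914) and Dse, an enzyme of dermatan sulfate synthesis (0.909). Among the genes most like C1ra were Colec12, a scavenger collectin (0.894), and Plekho2 (0.884). C3 was most like C1rb (0.876), the adhesion molecule gene Icam1 (0.861) and Gbp9, an interferon-induced GTPase (0.816). C2 was most like the peptidase gene Lvrn (0.91), Glb1l2 (0.864) and the adipocyte gene Adipoq (0.821). The summed adipocyte markers (6 genes) ranged from 17.9 to 403.8 CPM in TNBS and from 43.4 to 433.2 CPM in IBC, and their part in C2 was not tested. C4b was most like Jak3 (0.85), Atp10d (0.845) and C4a (0.841), Cfb most like the toll-like receptor gene Tlr1 (0.84), Tagap (0.81) and Riok1 (0.795). C1s1 was closest to Bid (0.796), Flot2 (0.787) and Icam1 (0.775), and Serping1 to the growth hormone receptor gene Ghr (0.793), Ust (0.791) and Ggta1 (0.775). These are among the top 3 of many genes in each case.

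The rest of the complement system was read from a list of 51 other genes, of which 46 were in the table and 40 were tested. None of the 40 passed an adjusted p of 0.05 in any of the 3 comparisons. At an unadjusted p under 0.05, 8 were higher and 2 lower in TNBS than in vector, where 10.4% and 7.32% of all genes were. The counts were 10 and 1 for IBC against vector, where 4.9% and 3.63% of genes were, and 0 and 0 for IBC against TNBS, with 1.71% and 2.22%. The list's median difference from vector was 0.13 log2 units with TNBS and 0.27 with IBC, and its median for IBC minus TNBS was 0.26.

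The genes of the recognition subunits of C1 had higher means in TNBS and IBC than in vector, and none passed the threshold in any comparison. C1qa averaged 45.7 CPM ± 14.5 (SD, n = 6) in vector, 84.0 ± 51.6 in TNBS and 81.9 ± 20.9 in IBC. Its difference was 0.88 ± 0.32 log2 units for TNBS against vector (edgeR adjusted p = 0.204) and -0.04 ± 0.32 for IBC against TNBS (0.991). Against vector, IBC differed by 0.84 ± 0.32 (0.468). C1qb and C1qc had 0.80 ± 0.31 and 0.80 ± 0.35 for TNBS against vector (0.216 and 0.253) and 0.80 ± 0.31 and 0.79 ± 0.35 for IBC against vector (0.482 and 0.55, edgeR adjusted p). TNBS replicates 2 and 6 and IBC replicate 2 lay within the vector range of C1qa. Among the lectin pathway genes, the ficolin gene Fcna had 10.2 CPM ± 1.43 (SD, n = 6) in vector, 17.4 ± 8.45 in TNBS and 19.2 ± 5.63 in IBC. All 6 IBC libraries of Fcna (12.8 to 27.8 CPM) were above all 6 vector libraries (8.76 to 12.4 CPM), at 0.92 ± 0.31 log2 units (edgeR adjusted p = 0.369). Colec10, a collectin, averaged 5.58 CPM ± 5.01 (SD, n = 6) in vector and 1.51 ± 0.57 in TNBS, with medians of 3.05 and 1.67. The vector mean rests on the Hoxb13-low vector replicates 3 and 4, at 10.47 and 13.29 CPM. Between TNBS and vector, Colec10 differed by -1.89 ± 0.58 log2 units (0.166) and the protease gene Masp2 by -0.62 ± 0.29 (0.278). C1qbp, which encodes a mitochondrial protein that binds C1q, had 0.59 ± 0.27 in the same comparison (0.266). Between IBC and vector, Colec12 had 0.94 ± 0.32 (0.38), Masp2 -0.87 ± 0.29 (0.385) and the endothelial and myeloid receptor gene Cd93 0.91 ± 0.38 (0.511).

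Among alternative pathway and terminal genes, properdin (Cfp), which stabilises the C3 convertase, averaged 12.2 CPM ± 4.33 (SD, n = 6) in vector, 26.0 ± 17.3 in TNBS and 25.4 ± 11.7 in IBC. Its differences from vector were 1.09 ± 0.40 (edgeR adjusted p = 0.203) and 1.06 ± 0.40 log2 units (0.457). Cfd, the factor D gene that is abundant in fat, ran from 0.44 to 455.5 CPM within the TNBS group alone. The C5 gene Hc averaged 1.11 CPM in vector libraries, 0.56 with TNBS and 0.76 with IBC. C6 and C7, subunits of the membrane attack complex, averaged at most 1.05 and 0.79 CPM in any group.

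Of the inhibitors, Cd55, which dissociates convertases on cell membranes, averaged 39.6 CPM ± 8.28 in vector, 69.4 ± 38.1 with TNBS and 58.2 ± 13.8 with IBC (SD, n = 6). Its difference was 0.81 ± 0.30 log2 units for TNBS against vector (edgeR adjusted p = 0.204) and -0.26 ± 0.30 for IBC against TNBS (0.937). Cr1l and Cd59a, both membrane inhibitors, had differences of -0.12 to 0.01 and of -0.04 to -0.01 log2 units over the 3 comparisons. Cfi, the protease that inactivates C3b, averaged at most 0.19 CPM in any group, and Clu had means from 100.6 to 135.4 CPM.

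Among the other receptors, Itgam, the alpha chain of complement receptor CR3, averaged 7.72 CPM ± 2.76 (SD, n = 6) in vector, 15.3 ± 6.62 in TNBS and 19.8 ± 10.4 in IBC. It had the smallest adjusted p of the list for IBC against vector, at 1.36 ± 0.39 log2 units (edgeR adjusted p = 0.303). Between IBC and TNBS, the smallest unadjusted p among the listed genes outside the fixed set were those of Susd4 (0.67 ± 0.34 log2 units), Itgax (0.63 ± 0.35), Cd46 (0.42 ± 0.25) and Cd93 (0.56 ± 0.37), each with an edgeR adjusted p of 0.925. The CR3 partner chain Itgb2 differed by 0.77 ± 0.33 between IBC and vector (0.532). The second C5a receptor C5ar2 averaged at most 0.30 CPM and the macrophage receptor Vsig4 at most 0.26 CPM in any group. Cr2, the receptor of B cells and follicular dendritic cells, ranged from 0.11 to 22.8 CPM within the vector group.

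Between the Hoxb13 classes, 11 of the 40 listed genes (27.5%) passed the threshold, where 15.6% of all genes did. In the Hoxb13-low libraries Itgb2 was lower at -0.95 log2 units (edgeR adjusted p = 0.00358), Cfp at -1.12 (0.00586), Clu at -1.52 (0.0077) and Cr2 at -2.72 (0.0179), with C4bp, Cpn2 and Csmd1 also lower. Cfd was higher by 3.00 (0.037) and C7 by 2.61 (0.0323), with Colec10 and C1qbp also higher. Itgb2 and Cfp, which myeloid cells express, were on the same side as C3ar1. Itgam was also on that side at -0.53 without passing (edgeR adjusted p = 0.313). The macrophage receptor gene Vsig4 was on the other side at 0.45 (0.766). The part of myeloid cells in these differences was not tested.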

How the data were processed

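Per the labels' protocols, RNA was checked on a chip and polyadenylated RNA was captured on oligo(dT) beads. Reads were trimmed with cutadapt 1.9, per the submitters' processing notes. Which aligner, counter, strand setting, gene models and build were used is not given in the sources used here. Values for 35405 genes were deposited, and each library has a count of reads or fragments per gene, per the file headers. The deposited table also holds an FPKM value per gene and library, per the file headers, which is scaled by gene length and library total; the program that made it was not named there.

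What was computed began from these values. Genes were filtered with filterByExpr of edgeR 4.0.16 (20855 of 35405 remained), totals were scaled by TMM, and all 18 libraries were fitted together with glmQLFit and tested with glmQLFTest, two-sided, with Benjamini-Hochberg adjustment over all genes of a comparison and a threshold of 0.05. CPM are counts per 1e6 of the scaled totals. The SE is the log2 difference divided by the root of the F value. The test was tried on simulated data before use. Other tools were limma 3.58.1 and DESeq2 1.42.0 under R 4.3.3 with data.table (version 1.17.8). Library totals of 55.67 to 78.87 (in 1e6 counts) set the counting precision. Counts of 4 were more frequent than counts of 3 (19961 against 9977 gene and library values), so 1 fragment may count more than 1 time, and no limit is given for counts of 0.

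The Hoxb13 classes were set at 10 CPM. Each member was described with all its values. The other complement genes described singly were a fixed set of 19 and the 4 with the smallest unadjusted p in each comparison among the rest of the list, and 1 gene that this rule names is not reported here. Likeness used the 3 genes with the highest correlation of log2 CPM (prior count 2). Members and lists were chosen with earlier results of these data known. The motifs, the ratios, the leave-out of TNBS replicate 3 in the low class, and the interaction for IBC against TNBS were chosen after values had been seen. The interaction for IBC against vector was not planned in advance. No pair of libraries held identical values. Libraries with the same replicate number had no common direction of deviation (7 of 18 pairs with a correlation over 0.1, median -0.02, range -0.403 to 0.494). Only group means were removed and pairs of unlike number were not compared, so this cannot exclude pairing. The labels give no pairing, and numbers were not treated as pairs. Alternatives were another scaling, other filters, DESeq2, limma on log2 FPKM with 3 pseudocounts, library weights, a replicate block, counts divided by 4, the Hoxb13 class as covariate or subset, and each library left out.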

Additional observations from a re-analysis of the deposited data

Results flagged for a closer look

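Single libraries stood apart from the other 5 of their group by Dixon's criterion in 4 of 27 sets of a gene and a group (gap over range above 0.625 on log2 CPM), and chance flags about 1 in 20 such sets. C3 was 414.7 CPM in TNBS replicate 3, against at most 135.8 CPM in the other TNBS libraries. C1s1 was 140.1 CPM in the same library. This library belongs to the Hoxb13-low class. It held 493.6 CPM of summed neutrophil markers, against 97.7 to 178.1 CPM in 4 of the other TNBS libraries and 964.2 CPM in TNBS replicate 5. Ly6g weighs heavily in this sum, with levels up to 692.1 CPM over the 18 libraries. The sum of 5 mesothelium markers was also highest in TNBS replicate 3, at 114.2 CPM, against at most 42.15 CPM in any other library. The parts of neutrophils and mesothelium in the C3 and C1s1 levels were not tested. C3ar1 was 2.479 CPM in vector replicate 3, the library with 17.98% mitochondrial counts and the lowest macrophage marker sum of all 18 at 165.5 CPM. C5ar1 was 2.232 CPM in IBC replicate 2, which also had the lowest C3 level of its group at 97.3 CPM.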

How the results depend on the processing

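No member passed the adjusted threshold for TNBS against vector or for IBC against TNBS under any of 33 alternatives each. For IBC against vector, library weights (voom) called C3 at 1.26 log2 units (limma adjusted p = 0.0275), C4b at 1.03 (0.032), C1ra at 0.71 (0.0411), C3ar1 at 1.27 (0.0172) and C5ar1 at 1.41 (0.0128), and DESeq2 called C5ar1 at 1.38 (adjusted p = 0.0143). The C3ar1 difference between the Hoxb13 classes was called in all 21 alternatives, with adjusted p from 0.00237 to 0.0485.

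Genes called for TNBS against vector were 4 at the settings used, 549 with DESeq2, 142 with the Hoxb13 class as a covariate, 9 with voom weights, 2 with at least 1 CPM in 6 libraries, 1 with limma on log2(FPKM + 0.01), and 0 without a filter, with limma on log2(FPKM + 1) or log2(FPKM + 0.1), with only the 2 groups, with counts divided by 4, and within the 12 or the 6 libraries of a class. Leaving out 1 library gave 0 to 323, the highest without TNBS replicate 6. IBC against TNBS had 0, 4 with DESeq2, and 0 to 1 with a library left out (1 without IBC replicate 4). IBC against vector had 0, 197 with DESeq2, 610 with voom, 8 with only the 2 groups, 4 with the class as covariate, 30 within the 12 libraries, and 0 to 5 with a library left out (5 without IBC replicate 2). The class difference had 3249, and 2428 to 5049 with a library left out (5049 without TNBS replicate 5). The interactions had 0 (0 to 5, the latter without vector replicate 3) for TNBS against vector and 2 (2 to 7, the latter without IBC replicate 2) for IBC against TNBS. The causes were not tested.

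Directions turned as follows. For TNBS against vector, the 12 libraries gave Cfb -0.194, C2 -0.055 and C1s1 -0.239, voom gave C1s1 -0.067, and leave-one-out ranges were -0.007 to 0.346 for Cfb, -0.024 to 0.506 for C2 and -0.155 to 0.218 for C1s1, all lowest without TNBS replicate 3. For IBC against TNBS, the 6 libraries gave C3 -1.027, C4b -0.338, C2 -0.486, C1ra -0.472, C1s1 -0.691, C3ar1 -0.171, C5ar1 -0.027 and Serping1 -0.226. Cfb was 0.039 with limma on log2(FPKM + 1), with or without a filter, 0.038 with 0.1 or 0.01 added, 0.121 with voom and 0.314 in the 12 libraries. Leave-one-out ranges were -0.213 to 0.165 for Cfb and -0.069 to 0.308 for C1s1. For IBC against vector, Serping1 was -0.43 in the 6 libraries, and leave-one-out ranges were -0.002 to 0.293 for Cfb and -0.042 to 0.134 for Serping1. Between classes, leave-one-out ranges were -0.275 to 0.479 for C3 and -0.167 to 0.239 for C1s1, lowest without TNBS replicate 3.

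With the replicate block, TNBS against vector had 1 gene called, IBC against TNBS 0 and IBC against vector 0, and the block changed the call of no member.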
